A study of Canis lupus familiaris with 12 samples.

Results

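The primary cilium genes described here were a list of 43 named genes for intraflagellar transport, the BBSome, the transition zone, and the ciliary membrane, grouped by their known roles. Of these, 42 were listed in the deposited RNASeq table, among 13672 listed genes, and CC2D2A was not analysed here. All 42 had more than 1 CPM (the scaled read count of the table) in each of the 12 libraries, and all were among the 12650 genes that passed the filter on low values and were tested.

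mRNA levels were measured in MDCKII cells, an epithelial line from dog kidney, in 4 genotypes with 3 libraries each. These were WT cells and 3 KO lines, all untreated: CGN-KO (line 1G8), CGNL1-KO (line 22), and CGN/CGNL1 double-KO (line 21D3). The KO lines were made by CRISPR/Cas9 editing, and each KO genotype was represented by 1 line, so the effect of a genotype and a property of its line cannot be told apart. Cells were grown for 3 d in plates before RNA extraction, and neither the labels nor the methods say whether they carried cilia at that time. CGN (cingulin) and CGNL1 (paracingulin) are cytoplasmic proteins of epithelial junctions that bind the actomyosin and microtubule cytoskeletons. The comparisons ask whether mRNAs of the cilium machinery differed between cells with and without these junction proteins.

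The primary cilium is a single antenna of microtubules that grows from the mother centriole of a resting cell and, in kidney tubules, projects from the apical surface. Intraflagellar transport (IFT) trains carry cargo along it, with the IFT-B complex moving towards the tip and the IFT-A complex needed for the return, and the BBSome is an adaptor that moves membrane proteins with these trains. The transition zone at the base is a gate that controls what enters, and loss of any of these parts in people or animals can cause cystic kidneys and related ciliopathies.

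The targeted genes were low in the lines named for them. CGN was 199 to 233 CPM in WT, 39.7 to 45.3 in double-KO, 47.0 to 56.5 in CGN-KO, and 198 to 213 in CGNL1-KO libraries. CGNL1 was 7.74 to 12.3 CPM in WT, 1.11 to 1.76 in double-KO, 5.04 to 6.92 in CGN-KO, and 1.76 to 3.02 in CGNL1-KO libraries. Between 16837532 and 30086076 reads per library were recovered from the table. The median change of the tested genes against WT is given here for 3 chromosomes, each named by a gene that it holds. Other chromosomes had shifted medians too. In the CGN-KO line the other tested genes on the chromosome of BBS5 and TTC21B had a median log2 fold change of -0.11. For the 3 named chromosomes, the median log2 fold change in the double-KO line was 0.30 on that of CTNND1 (398 genes). It was 0.20 on the chromosome of MYH14 (688 genes) and 0.14 on that of MYL9 (317 genes). The medians of the CTNND1 and MYH14 chromosomes were 0.088 and 0.00038 in the CGN-KO line and 0.049 and 0.0047 in the CGNL1-KO line. The MYL9 chromosome had shifted medians in both single-KO lines as well, 0.19 and 0.20. Its shift was not even along its length. In double-KO cells the 20 tested genes nearest to IFT52 had a median of 0.0016, and those nearest to MKKS had 0.57. The cilium list has 4 genes on the 3 named chromosomes: BBS1 and TMEM216 with CTNND1, B9D2 with MYH14, and IFT52 with MYL9.

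Few of the cilium genes differed from WT, and none reached the 2-fold change that the study's methods require. In CGN-KO cells 1 gene was higher (NPHP4) and 1 lower (IFT20) at an adjusted p below 0.05, beside 11.2% of all tested genes called higher and 7.87% called lower. In CGNL1-KO cells 0 genes were higher and 1 was lower (B9D1), beside 6.81% and 3.49% of all genes. In double-KO cells 3 genes were higher (NPHP4, IFT52, and TMEM216) and 0 lower, beside 14.8% and 11.5% of all genes. Over the KO lines, 5 of the 42 genes were called against WT in at least 1 line, and 37 were not. Of all tested genes, 26.3% were called in either direction in the double-KO line alone, so the share over the 3 lines is at least that. Leaving out 1 library at a time moved the number called to between 2 and 6 for the double-KO, 1 and 3 for the CGN-KO, and 0 and 4 for the CGNL1-KO line. The KO lines share the same 3 WT libraries.

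Adjusted p values are from limma on log2(CPM + 1), with Benjamini-Hochberg adjustment over all 12650 genes, and fold changes are on that scale, which understates the change of low genes. With an added 2-fold threshold, limma, edgeR, and DESeq2 called 0 of the 42 genes in each KO line, also at an unadjusted p below 0.05. With limma the same threshold was passed by 1.41% of all genes in the double-KO line, 1.31% in the CGN-KO line, and 0.617% in the CGNL1-KO line. The shares were 2.59%, 2.44%, and 1.24% with edgeR and 2.58%, 2.41%, and 1.24% with DESeq2, whose fold changes carry no added 1 CPM. At an unadjusted p below 0.05 without a fold threshold, limma had 6 cilium genes higher and 7 lower in the double-KO line, 4 higher and 4 lower in the CGN-KO line, and 1 higher and 8 lower in the CGNL1-KO line. In either direction these were 13, 8, and 9 of the 42 genes, beside 37.6%, 32.5%, and 22.6% of all genes. By direction, 20%, 17.5%, and 12.7% of all genes were higher and 17.6%, 15.1%, and 9.9% lower in the same order of lines. In the CGNL1-KO line the list thus leaned to lower genes more than all genes did, and the cause was not tested. Where limma called 0, edgeR and DESeq2 on the recovered reads also called 0 higher in CGNL1-KO and 0 lower in double-KO cells.

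The list as a whole stayed near 0. The median log2 fold change of the 42 genes against WT was 0.046 for the double-KO line, -0.018 for the CGN-KO line, and -0.053 for the CGNL1-KO line, beside -0.00036, -0.0039, and -0.0031 for all tested genes. Above 0 lay 24, 17, and 16 of the 42 genes in these lines, and below 0 lay 18, 25, and 26. The median size of change regardless of sign was 0.15, 0.088, and 0.12 for the list, and 0.14, 0.12, and 0.095 for all genes.

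The precision of these values can be read from the intervals. The 95% confidence interval of the log2 fold change lay within a 2-fold change for all 42 genes in both single-KO lines and for 41 in the double-KO line, the exception being NPHP4, whose upper bound was 1.07. It lay within a 1.5-fold change for 37 genes in the double-KO, 38 in the CGN-KO, and 39 in the CGNL1-KO line. The genes outside that range in at least 1 line were IFT81, IFT172, BBS12, NPHP4, MKS1, and B9D2. The labels do not say that the libraries of a genotype came from separate cultures, so p values measure the spread between these libraries, which may be technical. In bulk RNA, fewer cells that express a gene and less RNA per cell cannot be told apart.

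**Figure D1:**
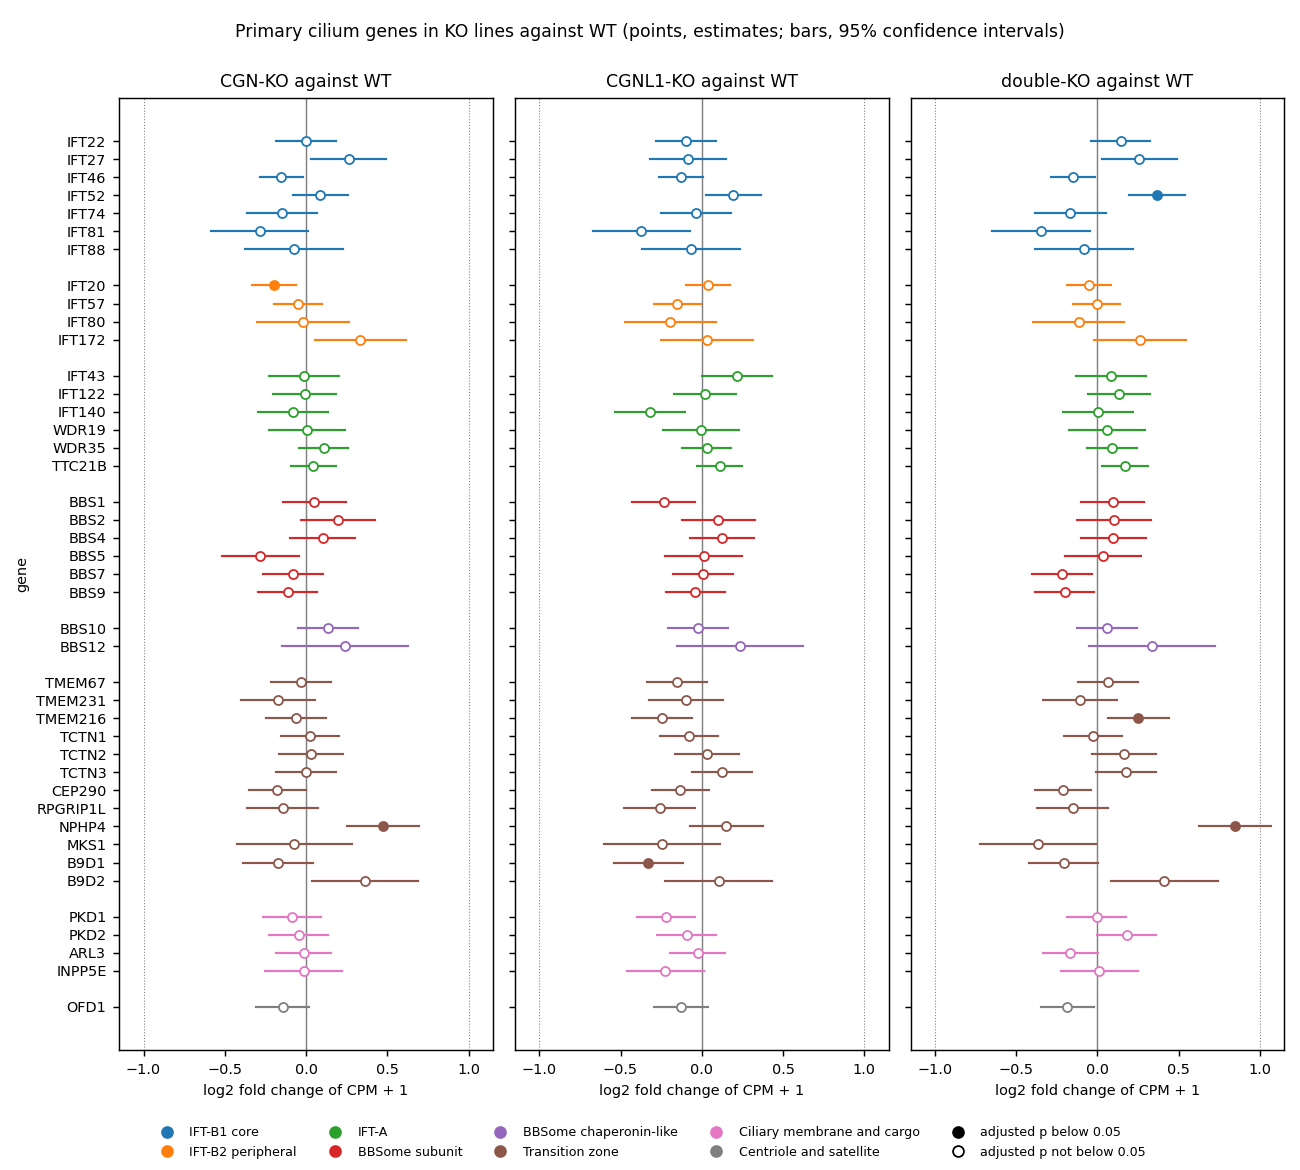
Log2 fold change of CPM + 1 against WT (x axis) for each of the 42 cilium genes (y axis, grouped and coloured by role) in CGN-KO, CGNL1-KO, and double-KO cells, with points for the limma estimate, bars for the 95% confidence interval, filled points for an adjusted p below 0.05, and dotted lines at a 2-fold change. There are 3 filled points for the double-KO line (IFT52, TMEM216, and NPHP4), 2 for the CGN-KO line (NPHP4 and IFT20), and 1 for the CGNL1-KO line (B9D1).

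In WT cells the mean level of the 42 genes ran from 1.99 to 53.6 CPM, with a median of 19.0, beside a median of 27.3 over all listed genes. A gene was covered by between 25 and 1653 reads in a library. These levels are not per transcript length, so no order between genes is read from them. The least covered genes were BBS12, with between 1.38 and 3.19 CPM, and B9D2, with between 1.66 and 3.85 CPM. The coefficient of variation between the WT libraries had a median of 7.86% for the cilium genes and 6.69% for all tested genes, and it was highest for BBS12 at 44.5%.

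The transition zone held the gene with the largest change, NPHP4. It encodes nephrocystin-4, a transition zone protein that is mutated in nephronophthisis, a cystic kidney disease. NPHP4 was at 6.78, 6.62, and 7.50 CPM in WT and at 13.5, 13.7, and 12.8 CPM in double-KO libraries. The level was 11.6, 9.83, and 8.86 CPM in CGN-KO and 8.77, 7.09, and 7.76 CPM in CGNL1-KO libraries. All double-KO libraries were above all CGN-KO libraries, all CGN-KO libraries were above all WT libraries, and the CGNL1-KO libraries overlapped with WT. The mean was 6.97 ± 0.470 CPM in WT, 13.3 ± 0.432 in double-KO, 7.87 ± 0.845 in CGNL1-KO, and 10.1 ± 1.38 in CGN-KO cells (SD, n = 3 each).

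The log2 fold change of NPHP4 against WT was 0.47 in CGN-KO (SE 0.10, adjusted p = 0.00453) and 0.85 in double-KO cells (SE 0.10, adjusted p = 2.02e-05). In CGNL1-KO cells it was 0.15, with a 95% confidence interval from -0.07 to 0.37 (adjusted p = 0.437). The lines also differed directly. NPHP4 was higher in double-KO than in CGN-KO cells by 0.38 (adjusted p = 0.0336) and than in CGNL1-KO cells by 0.69 (adjusted p = 0.00035). With the median of each chromosome subtracted, the call against CGN-KO cells was lost and that against CGNL1-KO cells was kept. The 20 tested genes nearest to NPHP4 had a median log2 fold change of -0.034 in CGN-KO and 0.0039 in double-KO cells. Both calls against WT were kept in each of the 12 fits that left out 1 library.

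TMEM216, which encodes a tetraspan membrane protein of the transition zone, was higher in double-KO cells by a smaller step. Its levels were 13.3, 13.1, and 13.7 CPM in WT and 16.2, 15.6, and 16.4 CPM in double-KO libraries. It had 12.1, 13.0, and 13.2 CPM in CGN-KO and 9.64, 12.2, and 11.7 CPM in CGNL1-KO libraries. Double-KO libraries lay above all others, CGNL1-KO libraries lay below all WT libraries, and CGN-KO libraries overlapped with WT. The log2 fold change was 0.25 in double-KO (SE 0.088, adjusted p = 0.0466) and -0.24 in CGNL1-KO cells (adjusted p = 0.098). Double-KO cells were higher than CGN-KO cells by 0.31 (adjusted p = 0.0364) and than CGNL1-KO cells by 0.49 (adjusted p = 0.00137).

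TMEM216 lies on the chromosome of CTNND1, where the 20 nearest tested genes had a median log2 fold change of 0.38 in double-KO cells, larger than that of TMEM216 itself. With the median of each chromosome subtracted, its value in double-KO against WT turned to -0.05 (adjusted p = 0.707). The call was also lost in 9 of the 12 fits that left out 1 library. The part of the chromosome shift in this result was not tested.

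B9D1, a B9 domain protein of the same gate, was the gene called lower in CGNL1-KO cells. It was at 17.7, 16.4, and 18.7 CPM in WT and at 15.8, 12.9, and 12.8 CPM in CGNL1-KO libraries, without overlap. In CGN-KO libraries it was at 17.2, 15.7, and 13.7 CPM, and in double-KO libraries at 15.2, 14.1, and 16.0 CPM, the latter below all WT libraries. The log2 fold change was -0.33 in CGNL1-KO (SE 0.10, adjusted p = 0.0483), -0.17 in CGN-KO (adjusted p = 0.249), and -0.21 in double-KO cells (adjusted p = 0.143). The call in CGNL1-KO cells was lost in 9 of the 12 fits that left out 1 library and with edgeR (adjusted p = 0.051), and was kept with DESeq2 (adjusted p = 0.0373).

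The other 9 transition zone genes were not called against WT in any line. The tectonic genes TCTN1, TCTN2, and TCTN3 and TMEM67 (meckelin) had log2 fold changes between -0.15 and 0.17, and TMEM231, another membrane protein of the gate, between -0.17 and -0.10. CEP290, which links microtubules to the membrane at the gate, had values of -0.18, -0.13, and -0.21 in CGN-KO, CGNL1-KO, and double-KO cells (adjusted p = 0.148, 0.383, and 0.0697). Its 20 nearest tested genes had medians of -0.18, -0.089, and -0.14 in the same order. The values for RPGRIP1L, a scaffold of the gate, were -0.14, -0.26, and -0.15 (adjusted p = 0.356, 0.137, and 0.299).

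Both remaining genes of the gate varied more between libraries. MKS1, a partner of B9D1 and B9D2, was at 5.09, 9.33, and 8.20 CPM in double-KO libraries and between 7.74 and 11.8 CPM in WT, with a log2 fold change of -0.36 (SE 0.17, adjusted p = 0.123). Its value of 5.09 CPM was that of the library whose column carries no replicate number. B9D2 had log2 fold changes of 0.36 in CGN-KO and 0.41 in double-KO cells (adjusted p = 0.116 and 0.0622), at 3.85 CPM or less in every library. It lies on the chromosome of MYH14, and its 20 nearest tested genes had a median of 0.25 in double-KO cells.

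**Figure D2:**
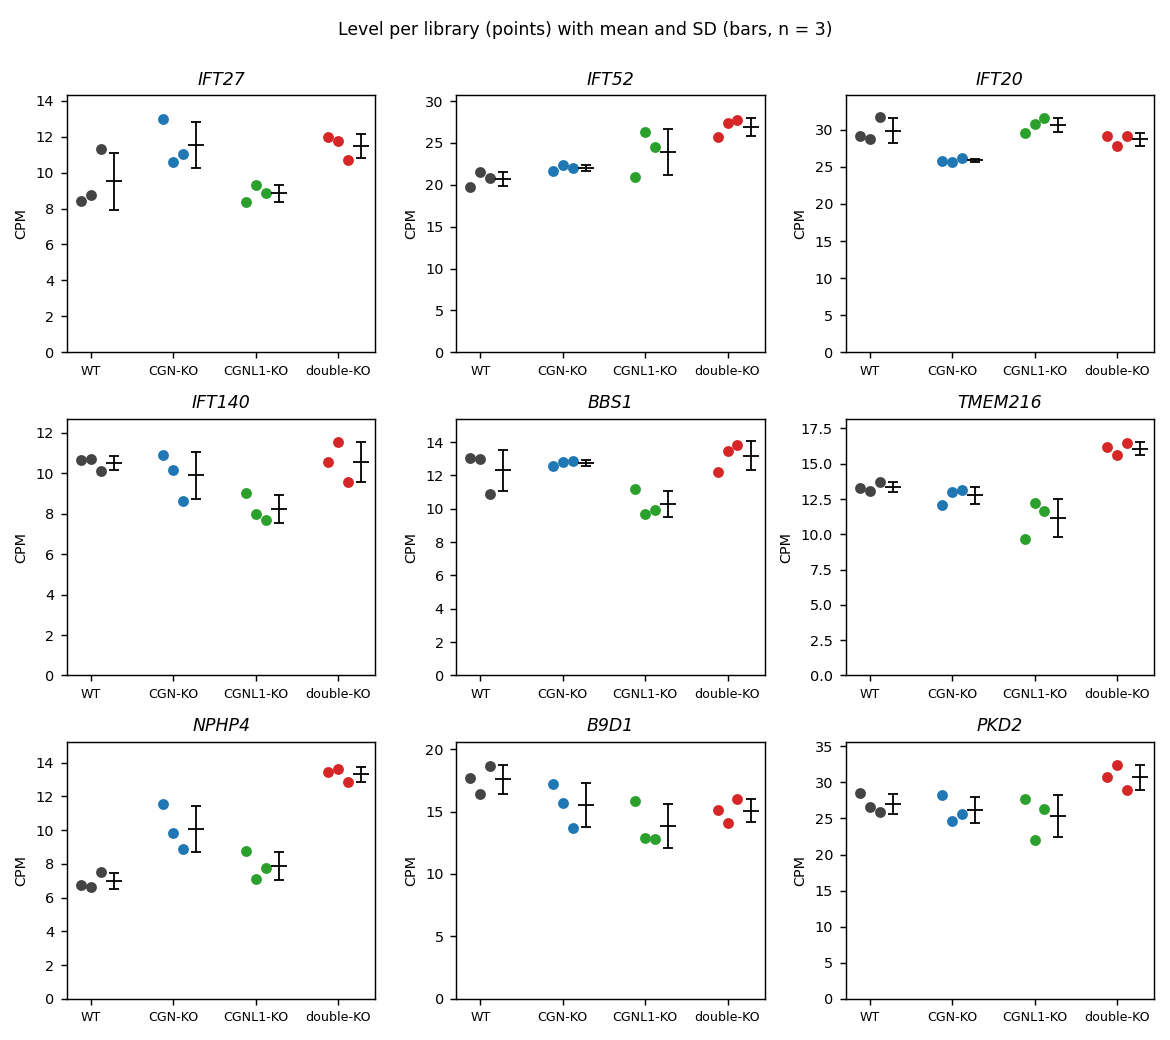
Level in CPM (y axis, linear, from 0) of the 9 cilium genes called in any comparison, by genotype (x axis), with 1 point for each library and bars for the mean and SD (n = 3). The CGN-KO and the double-KO libraries both lie above every WT library for NPHP4 and, by a smaller step, for IFT52; TMEM216 and PKD2 are above WT in double-KO cells, IFT20 is below WT in CGN-KO cells, and B9D1 is below WT in CGNL1-KO cells.

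Of the 7 genes of the IFT-B core, IFT52 was called in double-KO cells. Its product ties the core and the peripheral part of IFT-B together. IFT52 was at 19.7, 21.5, and 20.8 CPM in WT and at 25.7, 27.4, and 27.7 CPM in double-KO libraries. It was at 21.7, 22.4, and 22.0 CPM in CGN-KO and at 20.9, 26.3, and 24.5 CPM in CGNL1-KO libraries. Double-KO libraries were above all WT and all CGN-KO libraries and overlapped with CGNL1-KO libraries, and CGN-KO libraries lay above all WT libraries by a smaller step. The log2 fold change was 0.37 in double-KO (SE 0.080, adjusted p = 0.00308), 0.19 in CGNL1-KO (adjusted p = 0.155), and 0.09 in CGN-KO cells (adjusted p = 0.494), and double-KO was higher than CGN-KO by 0.28 (adjusted p = 0.0406).

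The call for IFT52 was kept in all 12 fits that left out 1 library. IFT52 lies on the chromosome of MYL9, and with the median of each chromosome subtracted its value was 0.21 (adjusted p = 0.111). The 20 genes nearest to it had a median of 0.0016 in double-KO cells. The part of the chromosome shift in this result was not tested.

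The other 6 core genes were not called against WT. IFT81 and IFT74, whose products bind tubulin as a pair, had values from -0.37 to -0.28 and from -0.17 to -0.03 in the KO lines, and the adjusted p of IFT81 was 0.176, 0.117, and 0.081 in CGN-KO, CGNL1-KO, and double-KO cells. IFT46, which carries dynein arm cargo in motile cilia, was near -0.15 in CGN-KO and double-KO cells (adjusted p = 0.108 and 0.0965). IFT88, whose mutation gives polycystic kidneys in mice, had log2 fold changes of -0.07, -0.07, and -0.08 (adjusted p = 0.766, 0.844, and 0.706). IFT22, a Rab-like GTPase, lay between -0.10 and 0.14.

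IFT27, a second Rab-like GTPase that is needed for BBSome exit from the cilium, was at 8.43, 8.78, and 11.3 CPM in WT, at 11.96, 11.8, and 10.7 CPM in double-KO, at 13.0, 10.6, and 11.04 CPM in CGN-KO, and at 8.36, 9.30, and 8.88 CPM in CGNL1-KO libraries. Its WT libraries overlapped with each KO group. Against WT it was at 0.26 in both CGN-KO and double-KO cells (adjusted p = 0.108 and 0.0964).

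In the peripheral part of IFT-B, IFT20 was lower in CGN-KO cells. IFT20 is the IFT subunit that also sits at the Golgi, where ciliary membrane cargo is sorted. Its levels were 29.1, 28.7, and 31.8 CPM in WT and 25.8, 25.7, and 26.2 CPM in CGN-KO libraries. Double-KO libraries had 29.2, 27.8, and 29.2 CPM, and CGNL1-KO libraries 29.6, 30.7, and 31.6 CPM. CGN-KO libraries lay below all other libraries, and the CGNL1-KO and double-KO libraries overlapped with WT. The log2 fold change in CGN-KO cells was -0.20 (SE 0.064, adjusted p = 0.0398), and it was -0.05 in double-KO and 0.04 in CGNL1-KO cells (adjusted p = 0.577 and 0.797). The call was lost in 10 of the 12 fits that left out 1 library.

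IFT172, a large subunit of the same part, had a log2 fold change of 0.34 in CGN-KO cells (SE 0.13, adjusted p = 0.0912) and 0.26 in double-KO cells (adjusted p = 0.161). IFT57 and IFT80 had log2 fold changes between -0.19 and -0.0046 in the KO lines. None of these 3 genes was called against WT.

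The IFT-A complex, 6 genes, had 0 genes called in any KO line against WT by limma. Of all tested genes, 19.0%, 10.3%, and 26.3% were called in CGN-KO, CGNL1-KO, and double-KO cells. At an unadjusted p below 0.05 the complex had 0, 1, and 1 genes in these lines, beside 32.5%, 22.6%, and 37.6% of all genes. With 6 genes, 0 calls cannot show that the complex differs from all genes. IFT140, a core subunit mutated in skeletal and renal ciliopathies, was at 10.7, 10.7, and 10.1 CPM in WT and at 8.998, 7.99, and 7.70 CPM in CGNL1-KO libraries. These groups did not overlap, and the log2 fold change was -0.32 (SE 0.10, adjusted p = 0.0593). In CGN-KO libraries it was at 10.9, 10.2, and 8.62 CPM, and in double-KO libraries at 10.6, 11.5, and 9.54 CPM, both overlapping with WT. IFT43 lay at 0.22 in CGNL1-KO cells (adjusted p = 0.222). IFT122, WDR19, WDR35, and TTC21B, the remaining subunits, had log2 fold changes between -0.0095 and 0.17.

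The BBSome also had 0 of 6 subunits called against WT by limma, beside 19.0%, 10.3%, and 26.3% of all genes in CGN-KO, CGNL1-KO, and double-KO cells. At an unadjusted p below 0.05 it had 0 higher and 1, 1, and 2 lower in these lines. Of all genes, 17.5%, 12.7%, and 20% were higher and 15.1%, 9.9%, and 17.6% lower at that p. A group of 6 genes is too small to be set apart from these shares. BBS1, the subunit that reads membrane cargo, was at 13.0, 13.0, and 10.9 CPM in WT, at 12.2, 13.5, and 13.8 CPM in double-KO, at 12.6, 12.8, and 12.9 CPM in CGN-KO, and at 11.2, 9.70, and 9.95 CPM in CGNL1-KO libraries. WT overlapped with each KO group, and the log2 fold changes were 0.09, 0.05, and -0.23 in the same order of KO lines (adjusted p = 0.482, 0.74, and 0.129).

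BBS5, which binds phosphoinositides, was at 8.14, 8.05, and 8.03 CPM in CGN-KO libraries and between 9.44 and 10.6 CPM in WT, with a log2 fold change of -0.28 (adjusted p = 0.0884). The other tested genes of its chromosome had a median of -0.11 in that line, and its 20 nearest had -0.073. BBS7 and BBS9, which help to form the core of the complex, were at -0.22 and -0.20 in double-KO cells (adjusted p = 0.0791 and 0.0963). BBS2 and BBS4 lay between 0.10 and 0.20 in the KO lines. The chaperonin-like genes BBS10 and BBS12, which assist BBSome assembly, lay between -0.02 and 0.34 and were not called.

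At the ciliary membrane, 0 of 4 genes were called against WT by limma. The shares of all genes called were 19.0%, 10.3%, and 26.3% in CGN-KO, CGNL1-KO, and double-KO cells, so 0 of 4 is not informative. At an unadjusted p below 0.05, 1 gene was lower in CGNL1-KO cells, beside 9.9% of all genes. PKD1 and PKD2 encode the polycystins, which are mutated in autosomal dominant polycystic kidney disease. PKD1 was at 31.5, 34.4, and 38.6 CPM in WT and at 30.8, 30.6, and 27.7 CPM in CGNL1-KO libraries, without overlap, and its log2 fold change there was -0.22 (adjusted p = 0.123). In CGN-KO and double-KO cells PKD1 was at -0.09 and -0.0060 (adjusted p = 0.511 and 0.967).

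PKD2 was at 28.6, 26.6, and 25.9 CPM in WT and at 30.8, 32.4, and 28.9 CPM in double-KO libraries, with a log2 fold change of 0.18 (adjusted p = 0.14) and no overlap. In CGN-KO libraries it was at 28.3, 24.6, and 25.6 CPM, and in CGNL1-KO libraries at 27.6, 22.1, and 26.4 CPM. ARL3, a GTPase that unloads lipid-modified cargo in the cilium, was at -0.02, -0.03, and -0.17, and INPP5E, the phosphoinositide phosphatase of the ciliary membrane, at -0.02, -0.22, and 0.01. OFD1, of the centriole and its satellites, was at -0.14, -0.13, and -0.19 (adjusted p = 0.212, 0.362, and 0.0876).

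The KO lines were also compared with each other in the same fit. In CGN-KO against CGNL1-KO cells 0 cilium genes were higher and 1 was lower, IFT20 with a difference of -0.23 (adjusted p = 0.0434), beside 3.09% and 2.09% of all genes. Here 5 genes were higher and 3 lower at an unadjusted p below 0.05, beside 9.58% and 7.86% of all genes. edgeR and DESeq2 each called 0 higher and 1 lower. The replicate numbers were taken to pair these libraries. When that number was made a block, in a fit without the unnumbered double-KO library, 2 genes were called, IFT20 lower and IFT172 higher. Without the block IFT172 differed by 0.30 (adjusted p = 0.245).

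In double-KO against CGN-KO cells 3 cilium genes were higher (NPHP4, TMEM216, and IFT52) and 0 lower, beside 4.93% and 3.91% of all genes. At an unadjusted p below 0.05 limma had 6 higher and 0 lower, beside 11.2% and 10.9% of all genes. edgeR and DESeq2 each called 3 higher and 0 lower. Leaving out any 1 of the CGN-KO or double-KO libraries left 0 or 1 called, and subtracting chromosome medians left 0.

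In double-KO against CGNL1-KO cells 6 cilium genes were higher and 0 lower, beside 8.12% and 6.29% of all genes. Beside NPHP4 and TMEM216 these were IFT27 by 0.34 (adjusted p = 0.0467), BBS1 by 0.33 (adjusted p = 0.0228), IFT140 by 0.32 (adjusted p = 0.0434), and PKD2 by 0.27 (adjusted p = 0.0434). For IFT27, BBS1, and IFT140 all double-KO libraries lay above all CGNL1-KO libraries, and so did those of PKD2. edgeR called 5 higher and DESeq2 4 higher, both with 0 lower. At an unadjusted p below 0.05 limma had 12 higher and 1 lower, beside 14.5% and 12.7% of all genes. With chromosome medians subtracted 2 were called, NPHP4 and PKD2. None of these 4 genes was called in either line against WT.

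The double-KO line was then compared with the sum of both single-KO changes. The change of 1 cilium gene was higher than that sum and of 0 genes lower, beside 3.87% and 6.45% of all genes. This was TMEM216, by 0.56 (SE 0.12, adjusted p = 0.00899), with 0 genes called once chromosome medians were subtracted. limma had 5 genes higher and 0 lower at an unadjusted p below 0.05, beside 11.5% and 13% of all genes. edgeR and DESeq2 each called 1 higher and 0 lower. In 1 test over the 4 genotypes, 6 of the 42 cilium genes differed (14.3%), namely IFT27, IFT52, IFT20, BBS1, TMEM216, and NPHP4, beside 29.9% of all genes.

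Over all these tests without a replicate block, 9 cilium genes were called by limma at least once and 33 were not called in any. Of all genes, 29.9% were called in the test over the 4 genotypes alone, so the share over all these tests is at least that. The 4 genes on the 3 named chromosomes included 2 of the 3 calls in double-KO cells against WT. Among the other 38 cilium genes, 1 was higher (NPHP4) and 0 were lower there, with a median log2 fold change of 0.0083.

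**Figure D3:**
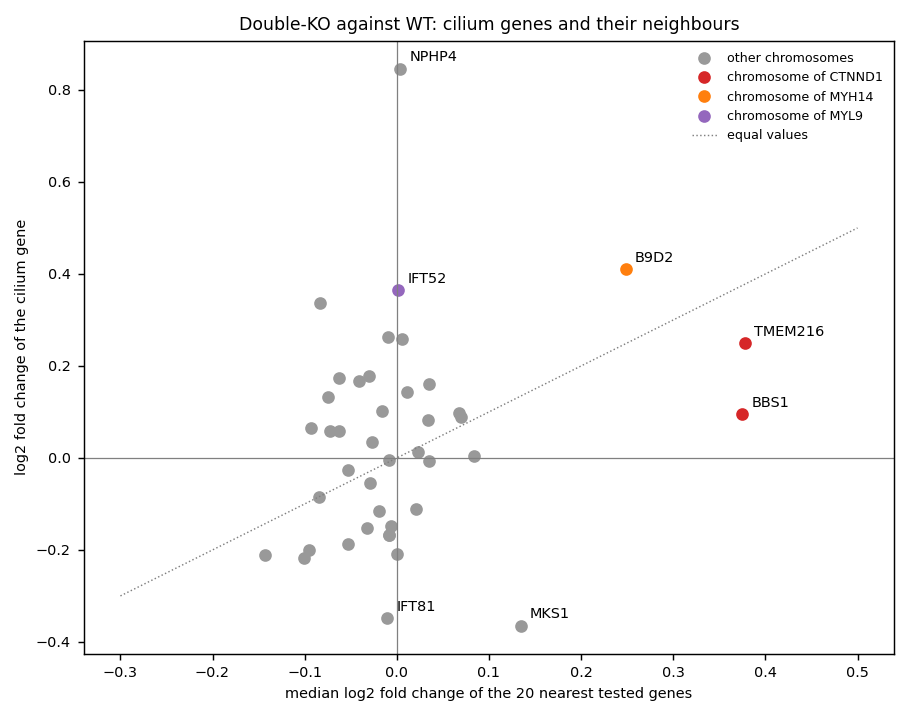
Log2 fold change of CPM + 1 in double-KO against WT cells for each of the 42 cilium genes (y axis) against the median of its 20 nearest tested genes (x axis), coloured by chromosome, with a dotted line where both are equal. NPHP4 (0.85) and IFT52 (0.37) have neighbours near 0, while TMEM216, BBS1, and B9D2 have neighbours with medians of 0.38, 0.37, and 0.25.

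The level of the list was also read in each library. The median of log2(CPM + 1) minus the WT mean over the 42 genes was 0.067, -0.032, and -0.046 in the WT libraries. Double-KO libraries had values of 0.024, 0.067, and 0.032, CGN-KO libraries of 0.049, -0.098, and -0.0073, and CGNL1-KO libraries of -0.017, -0.092, and -0.072. The CGN-KO and CGNL1-KO libraries overlapped with WT on this measure, and the double-KO libraries did too, since WT replicate 1 was as high as the highest of them. The same median over all tested genes lay between -0.0034 and 0.0042 in every library.

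**Figure D4:**
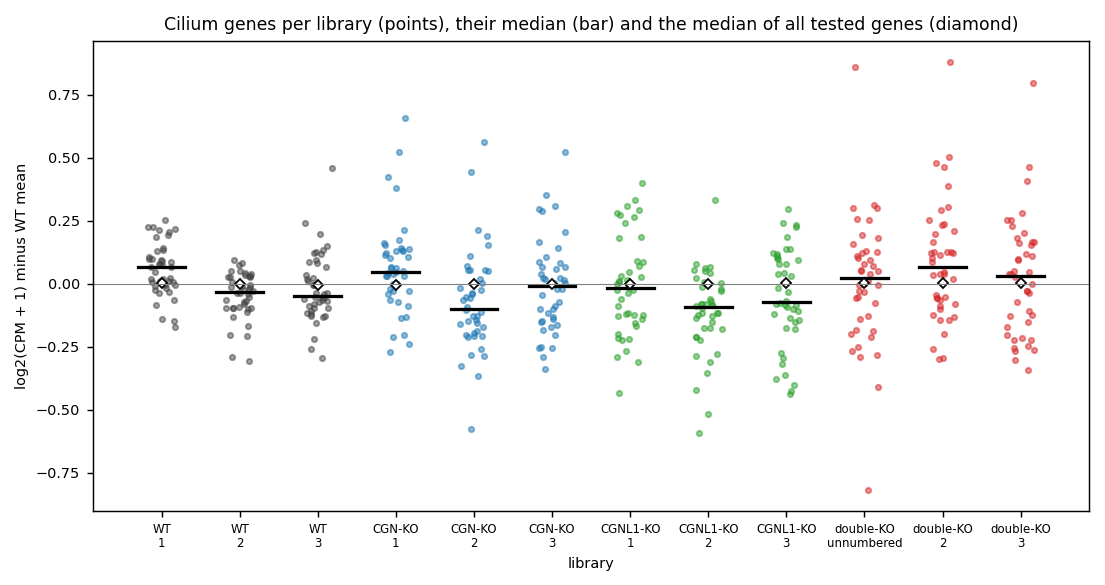
log2(CPM + 1) minus the WT mean (y axis) of each of the 42 cilium genes in each library (x axis, coloured by genotype), with black bars for the median of the cilium genes and diamonds for the median of all tested genes. The black bars lie between -0.098 and 0.067, with those of the 3 genotypes CGN-KO, CGNL1-KO, and double-KO overlapping those of WT, while the diamonds lie between -0.0034 and 0.0042.

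Other genes of the cilium were drawn from 10 lists, under 102 symbols that include older and newer names of the same gene. Of these, 88 were listed and 87 were tested. Against WT, 11 of them were higher and 2 lower in the double-KO line, 10 higher and 1 lower in the CGN-KO line, and 4 higher and 2 lower in the CGNL1-KO line. As shares of the 87 genes, 14.9%, 12.6%, and 6.90% were called in either direction, beside 26.3%, 19.0%, and 10.3% of all tested genes. Their median log2 fold changes were 0.029, 0.0083, and -0.013 in the same order.

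BICC1 was the only gene of these lists past both an adjusted p of 0.05 and a 1.5-fold change on the log2(CPM + 1) scale. On the ratio of mean CPM, TMEM138 in double-KO cells (1.57) and PKHD1 in CGN-KO cells (1.54) were past 1.5-fold too, and both are described after it. BICC1 encodes an RNA-binding protein whose loss gives cystic kidneys in mice. Its levels were 137, 145, and 145 CPM in WT and 266, 260, and 252 CPM in double-KO libraries. It was at 207, 222, and 233 CPM in CGN-KO and at 174, 184, and 179 CPM in CGNL1-KO libraries. The 4 genotypes did not overlap. Its log2 fold change against WT was 0.86 in the double-KO line (adjusted p = 1.24e-08), 0.63 in the CGN-KO line (adjusted p = 5.17e-07), and 0.33 in the CGNL1-KO line (adjusted p = 0.000672).

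The list of cystic kidney genes and ciliary channels, to which BICC1 belongs, had 7 tested genes. Of these, 4 were higher in the double-KO, 3 in the CGN-KO, and 2 in the CGNL1-KO line. The number lower was 0 in each, also at an unadjusted p below 0.05. Of all tested genes, 14.8%, 11.2%, and 6.81% were called higher in the same order of lines, with 11.5%, 7.87%, and 3.49% lower. The median log2 fold change of the list was 0.49, 0.24, and 0.19. The polycystin genes PKD1 and PKD2 were counted with the ciliary membrane genes instead. Their log2 fold changes against WT lay between -0.22 and 0.18. PKD1 was lower in the CGNL1-KO line at an unadjusted limma p of 0.019, so the absence of lower genes there depends on this split. The genes that follow were picked with their values known. PKHD1 encodes fibrocystin, which is mutated in autosomal recessive polycystic kidney disease. It was 10.1 to 11.4 CPM in WT, 15.0 to 16.2 in double-KO, 13.9 to 18.2 in CGN-KO, and 12.02 to 13.8 in CGNL1-KO libraries. All 3 KO groups lay above WT, with log2 fold changes of 0.57 (adjusted p = 0.000654), 0.26 (adjusted p = 0.118), and 0.51 (adjusted p = 0.00119) in CGN-KO, CGNL1-KO, and double-KO cells. GLIS3, a transcription factor of kidney and pancreas, was higher in each line, by 0.24, 0.19, and 0.53 (adjusted p = 0.00478, 0.0308, and 2.42e-06), and lies on the chromosome of MYH14. GANAB, a glucosidase for glycoprotein folding that is mutated in polycystic disease, was higher in double-KO cells by 0.49 (adjusted p = 1.25e-05) and lies on the chromosome of CTNND1.

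MKKS, a chaperonin-like partner of BBS10 and BBS12, was higher in each line, by 0.50, 0.54, and 0.54 (adjusted p = 3.87e-05, 2.99e-05, and 1.21e-05). It lies on the chromosome of MYL9, and all 20 of its nearest tested genes lay above 0 in each line, with medians of 0.59, 0.58, and 0.57. CEP131, of centriolar satellites, was higher in CGN-KO by 0.40 (adjusted p = 0.00885) and in double-KO cells by 0.53 (adjusted p = 0.000827), and was at 0.02 in CGNL1-KO cells. It was higher in CGN-KO than in CGNL1-KO cells by 0.38 (adjusted p = 0.0333). TMEM138, a transition zone gene on the chromosome of CTNND1, was at 5.77, 6.13, and 6.12 CPM in WT and at 9.40, 9.44, and 9.42 CPM in double-KO libraries, with a log2 fold change of 0.57 (adjusted p = 0.0145) and a median of 0.34 among its 20 nearest genes.

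The remaining lists are small, and their shares of called genes lay on both sides of those over all genes. Of all tested genes, 19.0%, 10.3%, and 26.3% were called in CGN-KO, CGNL1-KO, and double-KO cells. In CGN-KO cells 28.6% of the Hedgehog list, 25% of the cilium disassembly list, and 0% of the motor list were called. In double-KO cells 20% of the basal body list was called. Of 6 further IFT-B subunits 0 were called in any line, with 1 higher in CGN-KO cells at an unadjusted p below 0.05. TTC30A and TTC30B, near-identical copies in that list, can share reads and are uncertain. Of 9 motor genes, KIFAP3, the kinesin-2 accessory subunit, was lower in CGNL1-KO cells (log2 fold change -0.20, adjusted p = 0.0479). Of 14 further transition zone and inversin genes, ANKS6 was higher in CGN-KO cells by 0.25 (adjusted p = 0.0462), TMEM138 was higher in double-KO cells as above, and CSPP1 was lower in CGN-KO and CGNL1-KO cells (log2 fold changes -0.21 and -0.27, adjusted p = 0.0275 and 0.0117).

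Of 15 basal body genes, CEP131 was higher in CGN-KO cells, and CEP131, CEP89, and KIAA0586 in double-KO cells. Of 10 genes for membrane trafficking, RP2 was lower in double-KO cells (log2 fold change -0.25, adjusted p = 0.0385). Of 7 tested Hedgehog pathway genes, GPR161 and KIF7 were higher in CGN-KO cells by 0.35 and 0.40 (adjusted p = 0.0383 and 0.0214), and PTCH1 in double-KO cells by 0.33 (adjusted p = 0.00614). PTCH1 and CEP89 lie on the chromosome of MYH14, and their 20 nearest tested genes had medians of 0.24 and 0.25 in double-KO cells. Of 5 RFX transcription factors, a family in which some members drive cilium genes, RFX2 was lower in double-KO cells (log2 fold change -0.45, adjusted p = 0.0141).

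Of 8 genes for cilium disassembly, AURKA, the kinase that starts it, was higher in each line, by 0.27, 0.26, and 0.30 (adjusted p = 0.00429, 0.010, and 0.00138). AURKA lies on the chromosome of MYL9, and its 20 nearest genes had medians of 0.33, 0.33, and 0.31. NEDD9, which activates AURKA, was higher in CGN-KO cells by 0.44 (adjusted p = 0.00694). Of the 10 genes of these lists on the 3 named chromosomes, 7 were higher in double-KO cells, and of the other 77, 4 were higher and 2 lower. The part of the chromosome shifts in the calls was not tested.

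**Figure D5:**
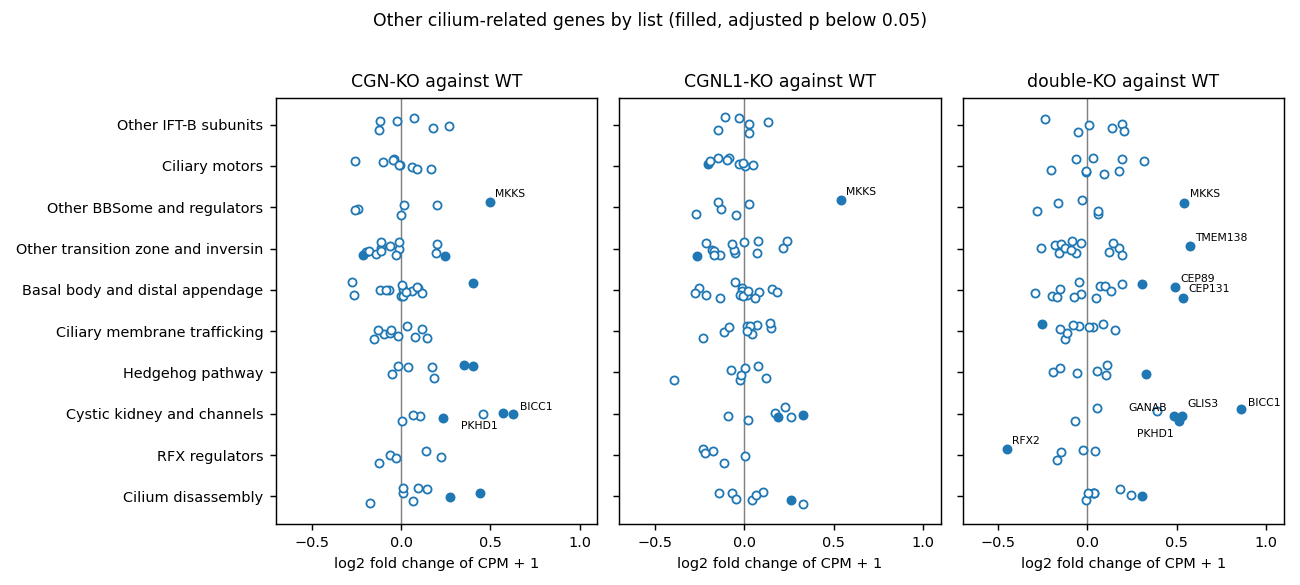
Log2 fold change of CPM + 1 against WT (x axis) of the 87 tested genes of 10 other cilium-related lists (y axis) in the 3 KO lines, with filled points for an adjusted p below 0.05, and names for called genes beyond 0.45 in either direction. The list of cystic kidney genes and channels has 3, 2, and 4 filled points, all to the right of 0, and RFX2 is the labelled point to the left.

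Markers of other cell states were read in the same libraries. Of 16 markers of motile cilia, 5 were analysed, and FOXJ1, the main regulator of motile cilia, was at 0.0552 to 0.758 CPM. The summed level of these 5 genes was 20.03 to 23.1 CPM in WT, 21.03 to 22.9 in double-KO, 16.4 to 21.2 in CGN-KO, and 17.7 to 21.1 in CGNL1-KO libraries, most of it from SPAG6 (14.3 to 20.9 CPM). DNAH5, a motile dynein, was higher in double-KO cells by 0.44 (adjusted p = 0.0262), at 1.99 CPM or less.

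All 11 markers of kidney epithelium were listed, with a summed level of 7360 to 7524 CPM in WT, 7444 to 7603 in double-KO, 7783 to 7883 in CGN-KO, and 7904 to 8190 in CGNL1-KO libraries. Of them 3 were higher and 2 lower in the double-KO line, 5 higher and 3 lower in the CGN-KO line, and 3 higher and 0 lower in the CGNL1-KO line. In either direction these were 45.5%, 72.7%, and 27.3% of the markers, beside 26.3%, 19.0%, and 10.3% of all tested genes. CDH16, a cadherin of kidney tubules, was at 0.828 to 1.94 CPM in WT and 2.32 to 5.14 CPM in CGN-KO libraries (log2 fold change 0.83, adjusted p = 0.0245). Of 7 fibroblast, 5 endothelial, and 5 leukocyte markers, 1, 2, and 1 were analysed, at summed levels of at most 11.1, 2.98, and 1.34 CPM in any library. PDGFRA, the fibroblast marker, was higher in CGN-KO cells by 0.81 (adjusted p = 0.0489). KDR, an endothelial receptor, was lower in double-KO cells (log2 fold change -0.96, adjusted p = 0.000113), from 1.12 to 1.77 CPM in WT to 0.0969 to 0.284 CPM. In CGNL1-KO cells KDR was called higher, by 0.46. Of 11 proliferation genes, limma called 0 in CGN-KO and CGNL1-KO cells, beside 19.0% and 10.3% of all tested genes. At an unadjusted p below 0.05 it had 1 higher and 1 lower in CGN-KO, and 0 higher and 1 lower in CGNL1-KO cells. TOP2A, AURKB, and E2F1 were higher in double-KO cells by 0.22, 0.32, and 0.34 (adjusted p = 0.0197, 0.00224, and 0.00652). These were 27.3% of the proliferation genes, beside 14.8% of all tested genes called higher. The part of these markers in the cilium gene results was not tested.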

How the data were processed

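RNASeq libraries of MDCKII cells were prepared by the authors with a stranded TruSeq mRNA kit. The submitters' processing notes name STAR 2.7.0f, HTSeq 0.9.1, and the genome build CanFam 3.1. The authors then scaled the counts with edgeR and deposited a signal in CPM per gene and library, scaled to an effective library size. The annotation release and the strand setting of the counting are not given in the sources used here, so reads of overlapping or antisense genes could be mixed. Whole reads were recovered from the value of 1 read in each library: 100% of values were whole within 0.01 read. The total of recovered reads gave the depth per library, which limits genes of few reads. 16 gene names look like dates and were kept unchanged.

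The test covered the genes above 1 CPM in 3 or more libraries and used limma 3.58.1 (lmFit, eBayes with trend) in R 4.3.3 on log2(CPM + 1), in 1 fit of the 12 libraries grouped by the genotype in their labels. A gene was called at a Benjamini-Hochberg adjusted p below 0.05. Alternatives were edgeR 4.0.16 and DESeq2 1.42.0 on the recovered reads, a pseudocount of 0.1, no filter, scaling to library totals, fits of 2 groups, a replicate block, subtraction of chromosome medians, and leaving out each library. The limma step alone was tested on simulated data. Plots were drawn with matplotlib 3.10.9.

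Replicate numbers were taken to pair the CGN-KO and CGNL1-KO libraries. Their same-numbered libraries deviated together from their group means, with a correlation over genes of 0.179 to 0.632 in all 3 pairs. Libraries of unlike number were not correlated, so the pairing is an assumption. The labels do not say what a number marks. For WT against CGN-KO and CGNL1-KO the numbers 1 and 2 correlated at 0.318 to 0.373 and the number 3 at -0.082 and 0.011. For double-KO with the other lines the correlations lay between -0.24 and 0.086. WT and double-KO libraries are therefore not taken as paired with the others. The column of 1 double-KO library carries no number and is called unnumbered.

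Chromosomes and neighbours come from RefSeq genes of the assembly UU_Cfam_GSD 1.0, matched by symbol for 11755 of the 12650 tested genes (92.9%), and no coordinates of it are given.

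The cilium genes, the other lists, and the 3 named chromosomes were chosen with earlier results of these data known. Values in every library were set to be given for cilium genes called against WT among the 5 largest rises or falls of a line, and of the other lists for genes past an adjusted p of 0.05 and a 1.5-fold change. Other genes given with values were picked with their values known. A part of that rule on levels per kilobase was not applied, since no transcript lengths were used here.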

Additional observations from a re-analysis of the deposited data

Results flagged for a closer look

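In 11 results on 8 cilium genes, the direct test between KO lines, or of the double-KO line against the sum of both single-KO changes, found a difference at an adjusted p below 0.05 with limma. The values are log2 differences of CPM + 1. NPHP4 was higher in double-KO than in CGN-KO cells by 0.3757 and than in CGNL1-KO cells by 0.6944, and all double-KO libraries lay above all libraries of both single-KO lines. TMEM216 was higher in double-KO than in CGN-KO cells by 0.3122 and than in CGNL1-KO cells by 0.4947, and exceeded the sum of the single-KO changes by 0.5570. IFT52 was higher in double-KO than in CGN-KO cells by 0.2782. IFT20 was lower in CGN-KO than in CGNL1-KO cells, at -0.2335. Against CGNL1-KO cells, double-KO cells were higher in IFT27 by 0.3422, IFT140 by 0.3222, BBS1 by 0.3295, and PKD2 by 0.2719. With the median of each chromosome subtracted, calls were left for NPHP4 and PKD2 in double-KO against CGNL1-KO cells and for 0 genes in double-KO against CGN-KO cells and in the test against the sum of the single-KO changes. The cause of these differences was not tested.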

How the results depend on the processing

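Of the 6 calls against WT, the 3 for NPHP4 in CGN-KO and for NPHP4 and IFT52 in double-KO cells held under every fit that left out 1 library, and those for NPHP4 under all other settings too. IFT52 lost its call with chromosome medians subtracted, while its 20 nearest tested genes had a median of 0.0016 in double-KO cells. TMEM216 in double-KO cells reversed to -0.0532 with chromosome medians subtracted. Without a replicate block 2, 1, and 3 cilium genes were called in CGN-KO, CGNL1-KO, and double-KO cells against WT. With the replicate block (without the unnumbered double-KO library) these were 5, 3, and 6, beside 2 in CGN-KO against CGNL1-KO, 1 in double-KO against CGN-KO, 4 against the sum of the single-KO changes, 12 over the 4 genotypes, and 18 and 10 genes of the other lists in CGN-KO and CGNL1-KO cells. Fits of only the 2 groups compared called 1, 0, and 6 cilium genes against WT, 0 in CGN-KO against CGNL1-KO, and 3 genes of the other lists in CGNL1-KO cells. In CGNL1-KO cells no filter on low values and edgeR called 0, and scaling to library totals 2. Chromosome medians subtracted left 3 over the 4 genotypes, 2 in double-KO against CGNL1-KO, 0 against CGN-KO, 0 against the sum, and a list median of -0.0069 in double-KO cells. The cause of these changes was not tested.

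Leaving out 1 library gave 1 to 3 called in CGN-KO, 0 to 4 in CGNL1-KO, and 2 to 6 in double-KO cells. The value of 4 came without CGNL1-KO replicate 1, and 6 without that library or without WT replicate 3. It gave 0 to 4 in CGN-KO against CGNL1-KO, 0 to 4 in double-KO against CGN-KO, 2 to 6 against CGNL1-KO, 1 against the sum, and 2 to 11 over the 4 genotypes, with 11 without CGNL1-KO replicate 1. List medians ran from -0.073 to 0.043, -0.099 to -0.015, and 0.015 to 0.065, and other lists from 6 to 16, 3 to 9, and 11 to 16 called. Depth limits BBS12 and B9D2, which had as few as 25 and 30 reads in a library.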
